A study of Mus musculus with 8 samples.

Results

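Class I antigen presentation genes are the 10 mouse genes Psmb8, Psmb9, Psmb10, Tap1, Tap2, Tapbp, Erap1, B2m, H2-K1 and H2-D1, taken by their symbols from tables of 23845 gene symbols. All 10 were present in each of the 8 tables. They were chosen by their footprint values in this same KO against WT comparison, so their levels and differences between genotypes are a description. Where the fit over all genes called a member, the call is stated and supports nothing. The libraries came from METTL5 knockout (KO) and wild-type (WT) mouse embryonic stem cells (mESC) at passages 5 to 10, with 2 libraries of each genotype by Ribo-seq and 2 by RNA-seq. METTL5 is the enzyme that methylates an adenosine of 18S ribosomal RNA. Ribo-seq counts ribosome-protected fragments of mRNA (footprints), here from the monosome fraction of a sucrose gradient, and the RNA-seq libraries are labelled both as total RNA and as mRNA. With the number of KO clones not given in the sources used here, the KO libraries may come from 1 clone.

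Class I molecules display peptides from inside the cell to T cells. In the immunoproteasome, PSMB8, PSMB9 and PSMB10 replace the constitutive catalytic subunits PSMB5, PSMB6 and PSMB7, and the change alters which peptides are cut. The TAP1-TAP2 transporter carries peptides into the endoplasmic reticulum, tapasin (Tapbp) holds empty class I molecules at the transporter, and ERAP1 trims the peptides. The finished molecule is a heavy chain, such as H2-K1 or H2-D1, bound to beta-2-microglobulin (B2m). Embryonic stem cells are known for low surface class I, and interferon induces most genes of the pathway.

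Library totals ranged between 8401463 and 11487964 counts for footprints and between 152195 and 219567 counts for RNA-seq. Levels are given as CPM, the count divided by the library total and multiplied by 1000000. In a footprint library 3 counts corresponded to 0.261 to 0.357 CPM, and in an RNA-seq library to 13.7 to 19.7 CPM, which covers counting error only. Footprints on Mettl5, the targeted gene, averaged 4.43 ± 0.504 CPM in KO and 43.6 ± 3.37 CPM in WT (SD, n = 2 each). The 10 stem cell markers examined were all detected in the 4 footprint libraries. Their summed level was 7402 and 7235 CPM in KO, against 5874 and 7597 CPM in WT, so the groups overlapped.

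In KO cells the footprint levels of these 10 genes did not move as a block. Psmb8, the transporter genes Tap1 and Tap2, Erap1, Tapbp and B2m were higher, with log2 fold changes of KO over WT between 0.65 and 3.49. H2-K1 and Psmb9 differed less (0.16 and 0.44), and Psmb10 and H2-D1 had negative values (-0.35 and -0.26). Both KO libraries lay above both WT libraries for 8 members and below for 1, Psmb10, and overlapped for H2-D1. Among all 12315 tested genes, 24.3% had both KO libraries above both WT libraries and 25.5% below. In the edgeR quasi-likelihood fit over all genes, 4 of the 10 members (Psmb8, Tap2, Tapbp and Erap1) had an adjusted p below 0.05 with a higher KO level, where 1.83% of all tested genes did. No member was called lower, where 0.617% of all tested genes were, and 2.44% were called in either direction. The members' median log2 fold change was 0.77, against 0.01 over all tested genes. These counts follow from how the members were picked and are not read as support. Without KO replicate 2 the count was 2 members, as Tapbp (0.77) and Erap1 (1.04) were no longer called, and without WT replicate 1 it was 6, with Tap1 (2.03) and B2m (0.84) added. Tapbp also lost its call without KO replicate 1 (0.99). In these bulk libraries, more cells that carry such footprints and more footprints per cell cannot be told apart.

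**Figure D1:**
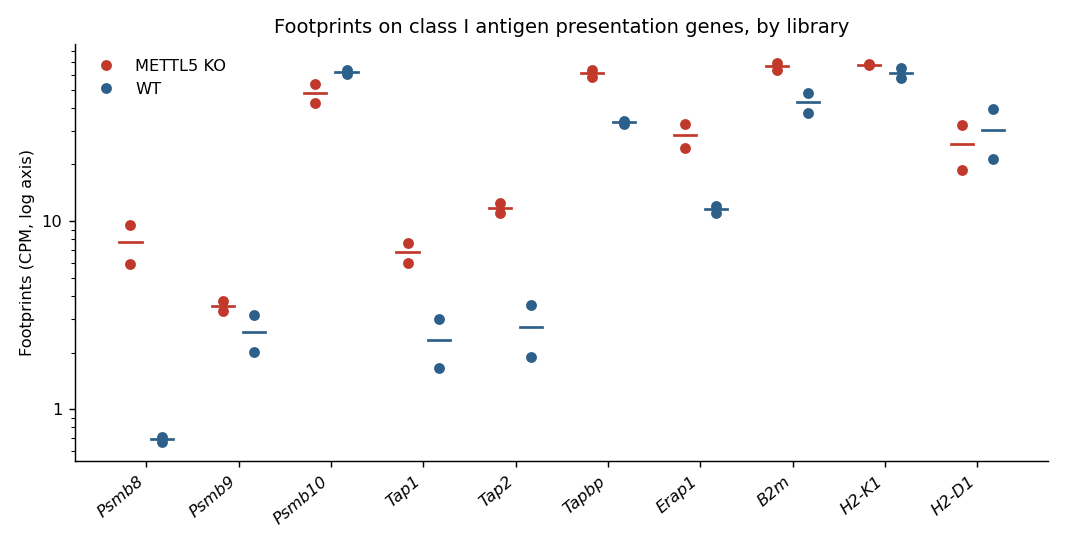
Footprint level of each of the 10 genes (CPM, log axis), with 1 point per library and a bar at the mean of 2 libraries, KO left of WT. Psmb8 has the widest gap between genotypes, with 5.90 and 9.49 CPM in KO and 0.669 and 0.714 CPM in WT, and H2-D1 overlaps.

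Markers of other cell types moved in different directions. The 12 fibroblast markers had a summed level of 473 and 679 CPM in KO, against 198 and 102 CPM in WT. Of 9 tested markers 3 rose, where 1.83% of all tested genes did, and the 9 had a median log2 fold change of 2.14. Both KO libraries lay above both WT libraries for 8 of the 9 and below for 1, Thy1. Over all tested genes these shares were 24.3% and 25.5%. Col5a1 (log2 fold change 1.93, adjusted p = 0.0110), Col3a1 (3.72, adjusted p = 0.0272) and Tagln (1.84, adjusted p = 0.0488) were called, Tagln not without KO replicate 2 (adjusted p = 0.0897 by edgeR). Col3a1 passed the filter through its KO libraries alone, so it could only be higher. Col1a1, which was not called (adjusted p = 0.132), had the highest level of the list, 212 and 274 CPM in KO against 70.9 and 23.9 CPM in WT. At the other end of the list, Lum was at 0 in all 4 footprint libraries, Dcn had 2 and 4 counts in KO against 1 and 1 in WT, and Thy1 had 14.8 and 16.5 CPM in KO against 20.2 and 25.1 CPM in WT. The part of these cells in the class I values was not tested. The 10 leukocyte markers summed to 69.2 and 60.4 CPM in KO, against 45.2 and 38.7 CPM in WT, with 0 of 4 tested called. Laptm5 had 1.17 (adjusted p = 0.162; 1.64e-04 without WT replicate 1 by edgeR, at 1.91) and Cd68 0.75 (adjusted p = 0.194). The list was uneven, with Laptm5 at 30.1 and 17.4 CPM in KO against 14.4 and 6.31 CPM in WT, and Coro1a overlapping. Tyrobp had no count in any footprint library, and Ptprc had 0 and 2 counts in KO against 0 and 0 in WT. The part of leukocytes in the class I values was not tested. The 10 endothelial markers were lower in sum, 119.9 and 176.6 CPM in KO against 177.3 and 221.3 CPM in WT, so the nearest libraries were almost level. Pecam1 had the highest level, 69.1 and 116 CPM in KO against 98.3 and 151 CPM in WT, and overlapped. Of 6 tested 1 fell (Robo4, -1.78, adjusted p = 0.0170 by edgeR), where 0.617% of all tested genes did. Both KO libraries lay below both WT libraries for 2 of the 6, where 25.5% of all tested genes had this. Log2 fold changes were negative for 5, among them Egfl7 (-0.05), and positive for 1, Vwf (0.12). Emcn had no count in any footprint library. Of the 10 stem cell markers none was called. Zfp42 had -0.58 (adjusted p = 0.0904) and Dppa4 -0.43 (adjusted p = 0.147).

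Among the immunoproteasome subunits, Psmb8 differed most. Psmb8 encodes the subunit with chymotrypsin-like activity and lies on the plus strand of chromosome 17 from 34197721 to 34201454 (GRCm38). Its footprints stood at 5.90 and 9.49 CPM in KO, against 0.669 and 0.714 CPM in WT. Both WT libraries rested on few counts, 7 and 6, while the KO libraries held 55 and 109. The log2 fold change was 3.49 (SE 0.43), or 11.2-fold. Psmb8 passed the filter on low counts, about 1.01 CPM, through its KO libraries alone, and it was the only member to do so. In an antisense direction 14.7% of its annotated exon bases overlap the gene Gm20496, with the strand setting of the counting not given in the sources used here.

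The promoter window of Psmb8 is shown because this gene had the largest difference. Such windows, from RefSeq on GRCm38.p6, run from 250 bases before to 50 bases after a start site, and were found for 9 of the 10 members. The Psmb8 window is chr17:34197945-34198244 on the plus strand, and its capitals mark a match to TTCNNNGAA, the letters of a gamma-activated site, an element of interferon-gamma responsive promoters, 97 to 89 bases before the start site.
Psmb8 promoter: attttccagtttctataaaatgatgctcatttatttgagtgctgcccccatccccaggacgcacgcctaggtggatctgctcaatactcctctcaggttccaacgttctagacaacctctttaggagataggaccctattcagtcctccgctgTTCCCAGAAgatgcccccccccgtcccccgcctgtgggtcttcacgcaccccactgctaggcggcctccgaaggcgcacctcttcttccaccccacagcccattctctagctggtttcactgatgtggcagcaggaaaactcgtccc
Searched on both strands, TTCNNNGAA occurred in 8.30% of all 32851 promoter windows and in no window of the other 8 members searched. A match is a run of letters and says nothing of binding.

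Psmb9 and Psmb10 did not follow Psmb8. Psmb9 encodes the caspase-like site's replacement and spans 34181987 to 34187764 of chromosome 17, minus strand. It had 3.75 and 3.31 CPM in KO, against 3.15 and 2.02 CPM in WT, so the lower KO library was barely above the higher WT library (log2 fold change 0.44, SE 0.35). Psmb10, the replacement of the trypsin-like site, spans 105935735 to 105938444 of chromosome 8, minus strand. It had 42.3 and 53.3 CPM in KO, against 60.4 and 63.4 CPM in WT, and both KO libraries were the lower ones (-0.35, SE 0.19). Footprints of chromosome 8 were lower in KO as a whole, with a median log2 fold change of -0.22 over 650 tested genes. With chromosome medians removed, Psmb10 was at -0.13.

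The constitutive subunits were far more abundant, and 2 of the 3 had both KO libraries below both WT libraries. Over all tested genes this share was 25.5%. Psmb5 stood at 201 and 137 CPM in KO, against 197 and 142 CPM in WT, and the groups overlapped. Psmb6 had 256 and 266 CPM in KO, against 348 and 306 CPM in WT, and Psmb7 had 286 and 279 CPM in KO, against 299 and 290 CPM in WT. Psmb6 and Psmb7 were the lower ones in KO, and none of the 3 passed the edgeR test, where 2.44% of all tested genes did. The log2 fold changes were -0.31 for Psmb6 (SE 0.16, adjusted p = 0.328), -0.05 for Psmb7 (SE 0.15, adjusted p = 0.901) and -0.004 for Psmb5 (SE 0.21, adjusted p = 0.995). Psmb6 lies on chromosome 11, where footprints were lower in KO as a whole, with a median of -0.25 over 1010 tested genes.

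Levels of 2 genes were compared on the deposited TPM, which divides by transcript length. The TPM level of Psmb8 was 2.08% and 4.90% of that of Psmb5 in KO, against 0.240% and 0.356% in WT. For Psmb9 over Psmb6 the share was 1.90% and 1.61% in KO, against 1.17% and 0.855% in WT. For Psmb10 over Psmb7 it was 11.2% and 14.5% in KO, against 15.3% and 16.6% in WT. The KO minus WT difference of the mean log2 TPM ratio was 3.45 for Psmb8, 0.80 for Psmb9 and -0.32 for Psmb10. The Psmb9 ratio also takes in the lower Psmb6 level in KO. All 3 pairs had separate genotypes, and in each library the immunoproteasome subunit stayed well below its constitutive counterpart.

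**Figure D2:**
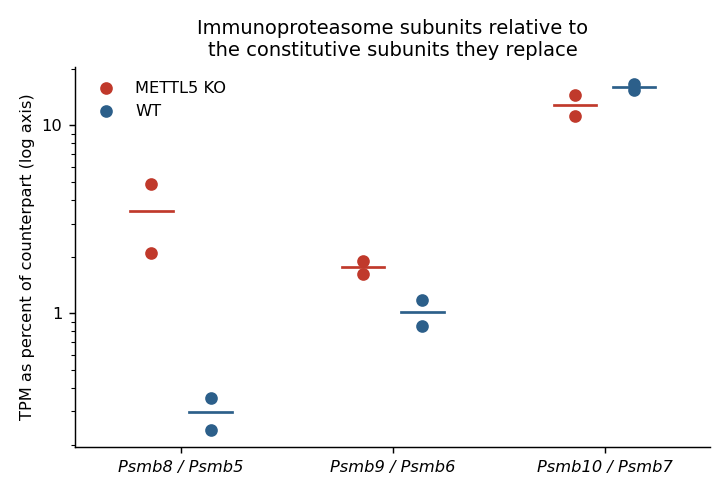
TPM of each immunoproteasome subunit as a percent of the constitutive subunit it replaces (log axis), 1 point per footprint library with a bar at the mean, KO left of WT. The Psmb8 share is 2.08% and 4.90% in KO and 0.240% and 0.356% in WT, and the Psmb10 share is lower in KO.

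Both transporter genes were higher in KO. Tap1, on the plus strand of chromosome 17 from 34187553 to 34197225, had 7.65 and 5.97 CPM in KO, against 3.002 and 1.67 CPM in WT (log2 fold change 1.53, SE 0.34). Tap2, on the same strand from 34203527 to 34216321, had 12.4 and 11.1 CPM in KO, against 3.59 and 1.90 CPM in WT (2.06, SE 0.32). In both genes each KO library lay above each WT library. The 2 WT libraries differed from each other by more than the 2 KO libraries did on a ratio scale. The products form 1 heterodimer, an ATP-driven pump, and Tap1 and Tap2 share stretches of sequence in their ATP-binding parts.

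The shared sequence bears on how their reads were split. The longest run common to their protein-coding transcripts in GENCODE M21 is 74 bases, shown because it is longer than a footprint.
Tap1 and Tap2 shared run: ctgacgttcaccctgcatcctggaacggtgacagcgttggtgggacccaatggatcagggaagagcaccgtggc
Of all windows of 28 bases in Tap1 transcripts, 1.65% also occur in Tap2. The deposited counts of each gene were fractional in most libraries, while their sum lay within 0.01 of a whole number in all 4. That sum was 187 and 196 counts in KO, against 69 and 30 counts in WT. Taken as 1 entry, the pair stood at 20.1 and 17.1 CPM in KO, against 6.59 and 3.57 CPM in WT, with a log2 fold change of 1.85 (SE 0.29).

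**Figure D3:**
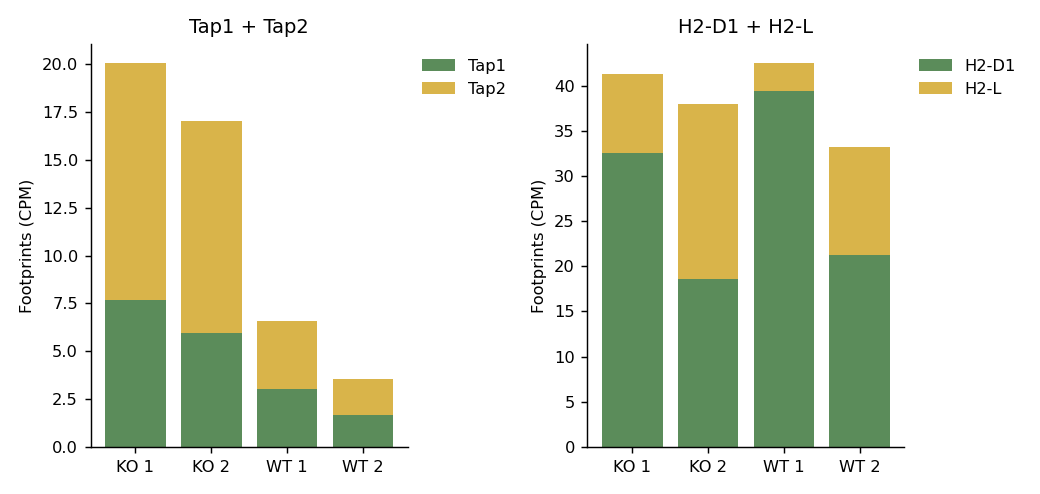
Footprints in CPM of Tap1 and Tap2 (left) and of H2-D1 and H2-L (right), stacked in each library, KO left of WT. The Tap sum is 20.1 and 17.1 CPM in KO and 6.59 and 3.57 CPM in WT, while the H2-D1 and H2-L sums overlap and the split between them differs by library.

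Tap1 and Psmb9 start back to back. Their RefSeq start sites lie 226 bases apart on opposite strands, and their promoter windows share 275 bases. The window of Tap1, chr17:34187306-34187605 on the plus strand, is shown because the same stretch, read on the other strand, serves Psmb9. Its capitals mark CCAATCAG, the reverse complement of the Y box letters CTGATTGG, which contains a CCAAT box.
Tap1 promoter, shared with Psmb9: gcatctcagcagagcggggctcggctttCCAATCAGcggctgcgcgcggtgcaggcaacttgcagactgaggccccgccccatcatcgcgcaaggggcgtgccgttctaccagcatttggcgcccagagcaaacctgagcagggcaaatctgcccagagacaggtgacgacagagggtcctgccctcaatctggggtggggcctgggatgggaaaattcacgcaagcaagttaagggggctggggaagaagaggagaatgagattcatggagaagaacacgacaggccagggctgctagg
Across this shared stretch the log2 fold changes were 1.53 for Tap1 and 0.44 for Psmb9. Their difference was not tested. In the annotation 212 exon bases of the 2 genes overlap on opposite strands, 3.87% of Tap1 and 5.79% of Psmb9.

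The loading and trimming genes were also higher in KO. Tapbp, on the plus strand of chromosome 17 from 33915899 to 33929292, had 58.3 and 63.7 CPM in KO, against 34.2 and 32.7 CPM in WT (log2 fold change 0.88, SE 0.17). Its libraries agreed closely within a genotype, and the KO pair stood apart from the WT pair. Erap1, on the plus strand of chromosome 13 from 74639568 to 74693201, had 24.3 and 32.6 CPM in KO, against 12.04 and 11.1 CPM in WT (1.32, SE 0.23). Both KO libraries stood clear of both WT libraries. Opposite-strand genes overlap 24.9% of the exon bases of Tapbp (Gm19412), 14.1% of Tap2 (Gm15821) and 11.5% of Erap1 (Cast). Whether their reads entered these counts was not tested.

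B2m was higher in KO while the heavy chains were near level. B2m, on the plus strand of chromosome 2 from 122147686 to 122153083, had 63.8 and 69.2 CPM in KO, against 48.0 and 37.7 CPM in WT (log2 fold change 0.65, SE 0.19). The 2 groups did not overlap. H2-K1, at 33996017 to 34000347 of chromosome 17 (minus strand), had 68.0 and 67.5 CPM in KO, against 57.2 and 65.0 CPM in WT (0.16, SE 0.16). The KO libraries were the higher ones, by less than the gap between the WT libraries for the nearest pair. H2-D1, on the plus strand from 35262730 to 35267499 of the same chromosome, had 32.5 and 18.6 CPM in KO, against 39.4 and 21.3 CPM in WT (-0.26, SE 0.33). Its groups overlapped, with KO the lower one within each replicate number, and the sign turned without WT replicate 1 (0.26) or without KO replicate 2 (0.06).

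The promoters of the class I molecules are shown because H2-K1 and H2-D1 share 2 letter matches that the search did not find in B2m. In H2-K1 (chr17:34000284-34000583, minus strand) and H2-D1 (chr17:35262844-35263143, plus strand), capitals mark 2 letter matches. One is to the kappaB site of the class I enhancer A, which NF-kappaB binds. The other is CCAATCAG, the reverse complement of CTGATTGG. A further CCAAT match, read as ATTGG, is left in lower case in both windows, and which stretch serves as the Y box was not tested. In B2m (chr2:122147437-122147736, plus strand) capitals mark the paired GAAA core of the interferon-stimulated response element and a CCAAT box.
H2-K1 promoter: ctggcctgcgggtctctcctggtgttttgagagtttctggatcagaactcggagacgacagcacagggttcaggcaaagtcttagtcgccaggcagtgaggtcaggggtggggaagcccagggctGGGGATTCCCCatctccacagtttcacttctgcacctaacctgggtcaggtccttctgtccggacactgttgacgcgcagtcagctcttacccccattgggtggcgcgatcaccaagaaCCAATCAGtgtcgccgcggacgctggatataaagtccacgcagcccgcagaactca
H2-D1 promoter: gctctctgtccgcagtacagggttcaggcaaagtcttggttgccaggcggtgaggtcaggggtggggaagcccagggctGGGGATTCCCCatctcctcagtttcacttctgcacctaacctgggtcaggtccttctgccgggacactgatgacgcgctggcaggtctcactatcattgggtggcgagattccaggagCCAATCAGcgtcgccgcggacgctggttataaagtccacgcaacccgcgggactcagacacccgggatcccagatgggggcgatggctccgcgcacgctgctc
B2m promoter: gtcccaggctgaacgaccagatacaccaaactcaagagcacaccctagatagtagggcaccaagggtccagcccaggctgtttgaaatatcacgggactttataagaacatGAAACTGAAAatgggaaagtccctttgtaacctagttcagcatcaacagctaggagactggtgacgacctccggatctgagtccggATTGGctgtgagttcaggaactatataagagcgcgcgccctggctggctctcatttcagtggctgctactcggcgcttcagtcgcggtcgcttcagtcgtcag
The kappaB letters were found in 16 of the 32851 windows (0.0487%), and among the members in these 2 genes. The paired core, found in 3.44% of windows, occurred in B2m and Erap1. CTGATTGG was in 4.10% of windows and in Tap1, Psmb9, H2-K1 and H2-D1, and CCAAT was in 37.4% of windows and in 6 members. All were searched on both strands, and letters that are missing from a window say nothing of the factor. Only these fixed patterns were searched, so a kappaB site or response element with other letters would be missed. The split between B2m and the heavy chains therefore holds for these patterns alone, and whether B2m lacks a kappaB site was not tested.

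Heavy chain values depend on how shared reads were divided. Of all windows of 28 bases in H2-D1 transcripts, 31.8% occur in transcripts of another gene, 15.7% in H2-K1 among others, and for H2-K1 the shared part is 24.6%. No such window was shared for Psmb8, Psmb9, Psmb10 or B2m. The tables also list H2-L, another class I heavy chain, which the annotation used here does not place. H2-L, named after its values were seen, had 8.80 and 19.4 CPM in KO, against 3.13 and 11.97 CPM in WT, and was high where H2-D1 was low within each genotype. H2-D1 made up 78.7% and 49.0% of the summed counts of these 2 entries in KO, against 92.6% and 64.0% in WT. The sum stood at 41.3 and 37.99 CPM in KO, against 42.5 and 33.2 CPM in WT. These sums lay 0.15 to 0.38 counts from a whole number, unlike those of the Tap pair, and reads may be shared with further entries. The groups overlapped, with a log2 fold change of 0.08 (SE 0.19) where H2-D1 alone had -0.26. Values of H2-D1 and of H2-L are therefore uncertain one by one.

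Over all 27 class I heavy chain entries of the tables, the summed level was 274 and 314 CPM in KO, against 268 and 259 CPM in WT. H2-T23, the heavy chain of the nonclassical molecule Qa-1, was also named after its values were seen and held 43.9% and 53.7% of that sum in KO, against 53.3% and 49.8% in WT. Without H2-T23 the sum was 154 and 145 CPM in KO, against 125 and 130 CPM in WT. The TPM of B2m was 0.388 and 0.357 times the summed heavy chain TPM in KO, against 0.299 and 0.240 times in WT. Both KO libraries lay above both WT libraries in the heavy chain sums and in the B2m ratio, while the H2-T23 share overlapped.

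On the TPM scale the order of the 10 genes differed between genotypes. In KO the mean levels ran from B2m (125 TPM) through H2-K1 (65.4), Psmb10 (60.2), Tapbp (35.1), H2-D1 (23.3), Erap1 (11.2), Psmb8 (10.085), Tap2 (7.46) and Psmb9 (7.07) to Tap1 (3.67 TPM). In WT they ran from B2m (80.8 TPM) through Psmb10 (78.3), H2-K1 (59.4), H2-D1 (27.8), Tapbp (19.3), Psmb9 (5.20), Erap1 (4.56), Tap2 (1.75) and Tap1 (1.29) to Psmb8 (0.910 TPM). Psmb8 was last in WT and rank 7 in KO. In KO the neighbours H2-K1 and Psmb10, and the run from Erap1 to Psmb9, overlapped in their libraries. In WT the neighbours B2m and Psmb10, Psmb9 and Erap1, Tap2 and Tap1, and Tap1 and Psmb8 overlapped. The median tested gene had 9.19 TPM in KO and 9.03 TPM in WT.

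The RNA-seq tables held too few counts for these genes, and the assays differed in more than depth. In RNA-seq the 10 stem cell markers summed to 250 and 275 CPM in KO, against 634 and 669 CPM in WT. Their footprint sums were 7402 and 7235 CPM in KO, against 5874 and 7597 CPM in WT. The cause of this gap between assays was not tested. Over the 10 members an RNA-seq library held between 17.5 and 30.6 counts in all, and 23 of the 40 gene and library values were 0. Psmb8, Psmb9 and Tap2 had 0 counts in all 4 libraries, where 3 counts would be 13.7 to 19.7 CPM. Tapbp had 16.6 and 5.89 counts in KO, against 4.33 and 10.9 counts in WT, and the groups overlapped. H2-D1 had 9.91 and 13.97 counts in KO, against 7.13 and 12.3 counts in WT, and was the only member to pass the filter. Its log2 fold change was 0.65 (SE 0.57) and was not called, where 6.37% of the 2087 genes tested in RNA-seq were (3.69% higher, 2.68% lower). For translational efficiency, footprints relative to RNA-seq counts, it had -0.91 (SE 0.68) and was not called, where 8.85% of 1458 tested genes were (4.25% higher, 4.6% lower). For the other 9 members the footprint differences cannot be split into mRNA level and ribosomes per mRNA.

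On chromosome 17, 7 members lie in the H2 complex between 33915899 and 35267499. From Tap1 to Psmb8 the gap is 495 bases and from Psmb8 to Tap2 it is 2072 bases, so the 3 genes with the largest log2 fold changes among the members are adjacent. The tables hold 98 other genes of the span, of which 53 were tested. By the edgeR test 2 of these rose, 0 fell and 51 did not pass, where 1.83% of all tested genes rose and 0.617% fell. The median log2 fold change of the 53 was 0.12, against 0.10 for the 607 tested genes of the chromosome. Ppt2, a lysosomal thioesterase, averaged 23.7 ± 2.09 CPM in KO and 11.4 ± 1.04 CPM in WT (SD, n = 2 each; log2 fold change 1.07, SE 0.21, adjusted p = 0.0354). Clic1, an intracellular chloride channel protein, averaged 114 ± 2.495 CPM in KO and 66.0 ± 7.51 CPM in WT (0.81, SE 0.16, adjusted p = 0.0354). Both lost the call without KO replicate 2 (adjusted p = 0.144 for Ppt2 and 0.0997 for Clic1 by edgeR), and Clic1 also without KO replicate 1 (0.0896).

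**Figure D4:**
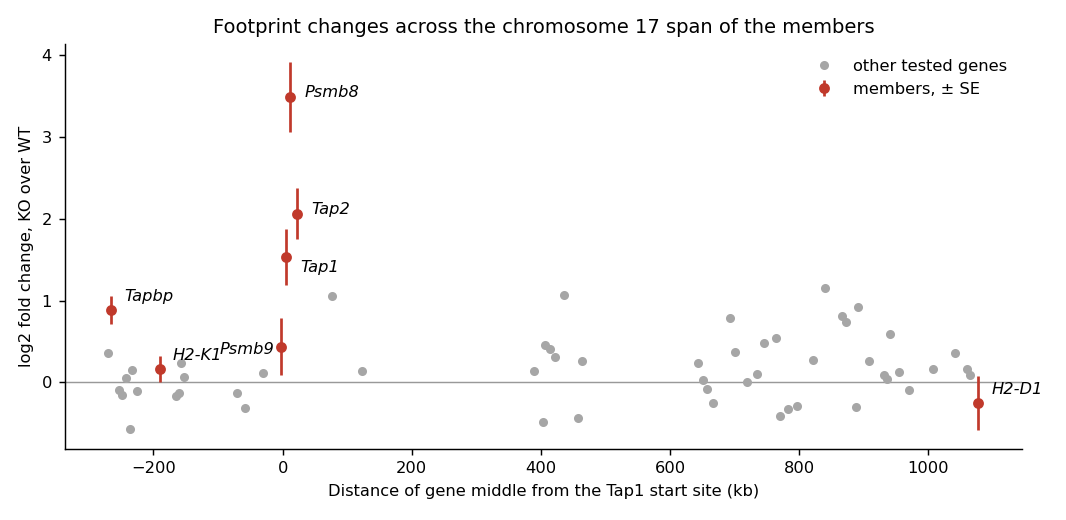
Log2 fold change of footprints (KO over WT) against the distance of each gene's middle from the Tap1 start site in kb, for the 7 members on chromosome 17 (with SE) and the 53 other tested genes of the span. Psmb8, Tap2 and Tap1 stand next to each other at 3.49, 2.06 and 1.53, and most neighbours lie near 0.

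Other genes of antigen presentation were taken in 8 lists, of which 7 concern class I and 1 class II. Of 102 listed genes 66 were tested, and by edgeR 0 rose and 0 fell, where 1.83% of all tested genes rose and 0.617% fell. An unadjusted p below 0.05 was found for 12 of the 66, where 2387 of all 12315 tested genes had one. DESeq2 called 1 of the 66 (Blmh, lower) and limma 0. The count depended on the fit, with 7 called with no filter and the most called in a fit blocked by replicate number. The 66 genes had a median log2 fold change of 0.06, against 0.01 over all tested genes.

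Other class I heavy chains had the highest median of the 8 lists, 0.74 over 10 tested entries, of which 3 passed the filter through their KO libraries alone. The other 7 had a median of 0.49. H2-Q4, a heavy chain of the Qa family region, had 9.09 and 8.31 CPM in KO, against 2.29 and 4.35 CPM in WT (log2 fold change 1.41, SE 0.33, adjusted p = 0.0626). H2-Bl averaged 1.81 ± 0.110 CPM in KO and 0.659 ± 0.0915 CPM in WT (SD, n = 2 each; 1.52, SE 0.48, adjusted p = 0.135 by edgeR). It is 1 of the 3 that passed the filter through their KO libraries alone, so it could only be higher. The groups were separate for H2-Q4 and H2-Bl, and neither gene was called. H2-Q4 was called without WT replicate 2 (adjusted p = 0.00538 by edgeR). The 7 tested class I-like proteins had a median of 0.42. Among them H60b, a ligand of the NK cell receptor NKG2D, had 1.15 (SE 0.34, adjusted p = 0.114), and Cd1d1, which presents lipids, had -0.90 (SE 0.30, adjusted p = 0.155).

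None of the chaperones, proteasome helpers or peptidases was called, where 2.44% of all tested genes were. The 7 loading complex chaperones had a median of 0.03. Ganab, a glucosidase of the endoplasmic reticulum, had 0.30 (adjusted p = 0.334), and the tapasin-related gene Tapbpl had -0.38 (adjusted p = 0.557). The 9 activators and assembly factors had a median of -0.10, with 8 negative. Both KO libraries lay below both WT libraries for 6 of the 9, where 25.5% of all tested genes had this. Psme3 (-0.46, adjusted p = 0.191) encodes a nuclear activator and Psmg4 (0.49, adjusted p = 0.216) an assembly chaperone. The 8 tested peptidases had a median of -0.17. Blmh, bleomycin hydrolase, had -0.63 (adjusted p = 0.0699 by edgeR), and Lnpep, which trims peptides in endosomes, had 0.75 (adjusted p = 0.0989). Some of these genes lie on chromosomes with lower footprints in KO as a whole. Psme3 and Blmh are on chromosome 11 (median -0.25 over 1010 tested genes) and Tapbpl is on chromosome 6 (-0.38 over 541). Blmh was called without WT replicate 1 (adjusted p = 0.0317 by edgeR) and Lnpep without WT replicate 2 (0.0234).

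Transcriptional regulators of the pathway had a median of 0.13 over 16 tested genes. Irf2, which binds interferon-responsive promoters, averaged 2.07 ± 0.102 CPM in KO and 0.513 ± 0.220 CPM in WT (SD, n = 2 each; 1.96, SE 0.50, adjusted p = 0.0824 by edgeR), and it was tested through its KO libraries alone. Irf8, a factor of blood cells, had -0.82 (SE 0.35, adjusted p = 0.249). Nlrc5, the class I transactivator, had 1 footprint count in 4 libraries and was not tested. Irf1, an interferon-induced factor named after its values were seen, had 0.08 (SE 0.20, adjusted p = 0.869). The 6 tested class II genes had a median of 0.13, with H2-Ab1 at 1.06 (SE 0.64, adjusted p = 0.408) and the invariant chain gene Cd74 at -0.35 (SE 0.22, adjusted p = 0.437). A miss of the threshold does not show that any of these was unchanged.

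**Figure D5:**
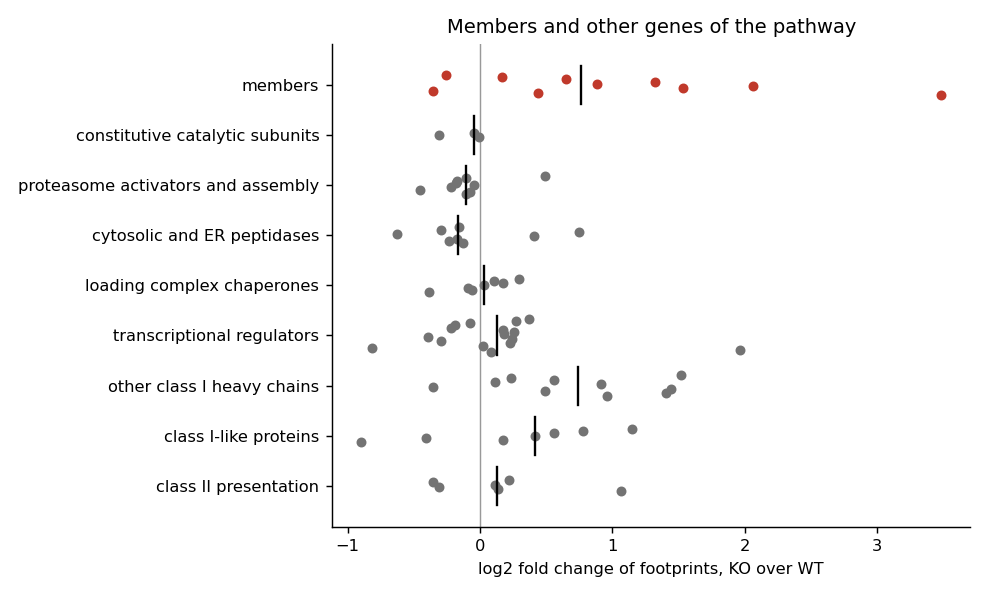
Log2 fold change of footprints (KO over WT) for each tested gene, by list, with a black bar at the list's median. The 10 members (median 0.77) spread from -0.35 to 3.49, and the medians of the 8 other lists plotted lie between -0.17 and 0.74.

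The genes whose footprint profile over the 4 libraries lay closest to the members' median profile were Abca1, Capn2, Metrn, Reep3 and Cyp7b1. Likeness was the root-mean-square distance of centred log2(CPM + 0.5) profiles, and it was 0.0274, 0.0278, 0.0290, 0.0306 and 0.0397 in that order. Abca1, the closest, had 49.9 and 51.4 CPM in KO, against 32.8 and 28.3 CPM in WT. With 4 libraries many genes share such a profile, and the measure is a description.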

How the data were processed

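Footprints and RNA-seq came from 2 METTL5 KO and 2 WT libraries each. Per the file headers, the deposited tables give RSEM expected counts, estimates that split reads shared between genes, and deposited TPM, scaled to 1000000 after division by effective length. Bowtie2 2.3.4.3, RSEM and mm10 are listed in the submitters' processing notes, with strand, trimming and length settings not given in the sources used here. For the tests, expected counts were rounded. CPM used the library total of expected counts, Rn45s included (7.58% to 15.2% of footprint counts).

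Each assay was fitted apart over all genes by quasi-likelihood in edgeR 4.0.16 (TMM, filterByExpr, robust dispersions), and genes with a Benjamini-Hochberg adjusted p under 0.05 were called. Translational efficiency was the assay by genotype interaction in 1 edgeR fit over 8 libraries, on genes passing the filter in both assays and scaled within assay. SE came from the F statistics. Ratios and profiles are descriptions. Replicates differed by more than sampling noise (chi-square per degree of freedom from 2.96 to 24.1). The labels do not say that replicates are separate cultures beyond calling them biological, so the p-values cover only the spread seen among them, which may be technical.

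Positions and transcripts are GENCODE M21 (GRCm38, the assembly behind mm10), and promoters are RefSeq on GRCm38.p6. Of 102 pathway symbols, 97 were in the tables. The fits were tried on simulated counts with the same dispersion for every gene and independent replicates. That setting is simpler than these data, so no conclusion is drawn from it. Alternatives were DESeq2 1.42.0, limma 3.58.1 on log2(TPM + 1), a replicate block, a joint fit, RLE scaling, no low-count filter, a minimum mean count of 50, Rn45s left out, chromosome medians removed, summed pairs (added after seeing the data) and leaving out each library. The members and lists were chosen with earlier results of these data known. Named genes were the members, the constitutive catalytic subunits, from each other list up to 6 called genes or otherwise the 2 of smallest p, and the 5 closest profiles, leaving out clone, microRNA, snoRNA, accession and pseudogene names. Genes said to be named after their values were seen, and Nlrc5, are outside the rule, as are the marker genes given for their counts.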

Additional observations from a re-analysis of the deposited data

Results flagged for a closer look

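H2-Q4, a class I heavy chain outside the 10 members, was called for translational efficiency. Of all 1458 tested genes 8.85% were called (4.25% higher, 4.6% lower). By the edgeR test its footprints alone were not called (adjusted p = 0.0626). Its translational efficiency, KO over WT, had a log2 value of 1.52 (SE 0.40, adjusted p = 0.0386 by the edgeR interaction test). Footprints stood at 9.09 and 8.31 CPM in KO, against 2.29 and 4.35 CPM in WT. RNA-seq gave 1347 and 1407 CPM in KO, against 1158 and 1649 CPM in WT, where the groups overlapped. Its RNA-seq level was thus far above its footprint level. H2-K1 was the reverse, with 57.2 to 68.0 CPM in footprints and 0 to 14.7 CPM in RNA-seq, the latter from only 0 to 3.23 counts in a library. Whether both assays counted the same transcripts of H2-Q4 was not tested. The call was lost when any of 6 of the 8 libraries was left out, with adjusted p values between 0.0873 and 0.126. Of the windows of 28 bases in its transcripts, 47.2% occur in other genes, so its counts are uncertain, and the part of shared reads in this difference was not tested.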

How the results depend on the processing

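The members were picked on this comparison, so how often they were called is no support. Psmb8 and Tap2 were called in all 13 alternatives that gave them a value, Erap1 in 12 of 14 and Tapbp in 10 of 14. Tap1 was called in 4 of 12, B2m in 3 of 14 and Psmb10 (lower) in 1 of 14, while Psmb9, H2-K1 and H2-D1 were called in none. The number of members called higher, 4 as reported, was 2 by limma on log2(TPM + 1) and ran from 2 to 6 when 1 library was left out. Called genes in footprints, 301 as reported, numbered 1110 with no filter, 186 with a mean count of at least 50, 467 in the joint fit, 172 by limma and 189 to 761 without 1 library. In RNA-seq, 133 calls became 75 by DESeq2, 76 with a mean count of at least 50, 261 in the joint fit, 37 by limma and 73 to 242 without 1 library. For translational efficiency, 129 calls became 17 with a mean count of at least 50 and 15 to 120 without 1 library. Pathway genes outside the members, 0 called as reported, numbered 1 by DESeq2, 7 with no filter, 1 in the joint fit and 0 to 3 without 1 library. The replicate block gave 2960 called genes in footprints, 6 members called higher and 15 called pathway genes. No label ties a replicate number to a common day, and deviations of same-numbered footprint libraries correlated by 0.433 over genes. Names of the deposited footprint tables carry tags that same-numbered KO and WT libraries share and no label explains, so whether the numbers pair the libraries is not settled with 2 pairs. H2-D1 turned to 0.26 without WT replicate 1 and to 0.06 without KO replicate 2 (range -0.65 to 0.26 without 1 library), and H2-T23 (0.11) to -0.21 without KO replicate 2 (range -0.21 to 0.37). Psmb5, at -0.004, turned to 0.015 with a mean count of at least 50, 0.0052 in the joint fit, 0.0040 without Rn45s, 0.0094 with chromosome medians removed, 0.26 without WT replicate 1 and 0.21 without KO replicate 2 (range -0.25 to 0.26). H2-Q4 in RNA-seq, at -0.11, turned to 0.070 by limma and 0.071 without WT replicate 2 (range -0.34 to 0.071). The cause was not tested. For differences of subunit ratios, CPM in place of TPM gave values within 0.01, and leaving out 1 library, which with 2 libraries cannot move a value past their gap, gave 2.83 to 4.07 for Psmb8, 0.58 to 1.03 for Psmb9 and -0.51 to -0.14 for Psmb10. Low counts limit the RNA-seq side: 9 of 10 members had too few to be tested there.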
